A study of Arabidopsis thaliana with 115 samples.

Results

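The comparison of HYH with the empty vector covers 6 RNA-seq libraries of batch 3, 3 from root cells that received HYH and 3 from root cells that received the empty vector (EV), out of 97 TF and 18 EV libraries in the series. The libraries were chosen by the transfection and the batch that their labels give, and all genes entered the description, with the HYH gene itself left out of the targets. HYH cells were protoplasts, which are plant cells freed of their walls, from roots of 10-day-old Arabidopsis Col-0 seedlings, transfected with a plasmid that expresses HYH fused to the hormone-binding part of the glucocorticoid receptor (GR). EV cells were the same root protoplasts transfected with a plasmid that expresses GR alone. Both kinds of cells received 60 mM total N (20 mM KNO3 and 20 mM NH4NO3), 35 µM cycloheximide (CHX), which blocks protein synthesis, and 10 µM dexamethasone (DEX), which lets the GR fusion enter the nucleus, and both were sorted by the fluorescence of the plasmid. The groups therefore share N, CHX and DEX and differ in the transfected TF. By the study's methods each well held cells with a red and cells with a green fluorescent vector. The labels give neither the vector nor the well partner of HYH, so the groups may differ in these too. By the study's methods the replicates come from 1 transfection split over 3 wells, so p-values measure the spread between wells and not between independent transfections. The question is which genes change within hours of HYH entering the nucleus while new protein synthesis is blocked. By the study's methods the cells were kept overnight after transfection, before CHX and DEX. No library lacked DEX, so differences that arose before DEX cannot be told apart from later ones.

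HYH (HY5-HOMOLOG) is a bZIP transcription factor and the closest relative of HY5, a positive regulator of the responses of seedlings to light. Both proteins are degraded in darkness by the E3 ubiquitin ligase COP1, both bind promoter elements with an ACGT core such as the G-box (CACGTG), and they share targets in flavonoid and anthocyanin synthesis. HY5 moves from shoot to root, where it acts on nitrate uptake, and it lacks an activation domain of its own, so that its effect on a promoter depends on partner proteins such as the B-box factors.

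The HYH gene (AT3G17609, chr3:6023844-6024710, plus strand; RefSeq, TAIR10.1) had 6609, 6334 and 6764 CPM in HYH cells, against 0.590, 0.584 and 1.30 CPM in EV cells, where CPM are reads relative to the library size after TMM normalization. All HYH libraries were far above all EV libraries (log2 fold change 12.97 ± 0.32 (SE), edgeR FDR 8.24e-50), and the highest level in any library of another TF or of EV was 19.4 CPM. Reads of the plasmid and of the resident gene cannot be told apart. HY5 itself had 3.23, 3.11 and 2.66 CPM in HYH cells, against 4.55, 2.50 and 3.90 CPM in EV cells, with overlapping groups (log2 fold change -0.29 ± 0.30 (SE), edgeR FDR 0.707). Of the other 32 TFs of the study, none had its own gene called higher in HYH cells. ERF5, a TF of the ethylene response family, was lower, at 71.6, 58.2 and 45.3 CPM in HYH cells, against 138, 109.8 and 86.2 CPM in EV cells (log2 fold change -0.95, edgeR FDR 0.00104). ERF5 is on the study's list of CHX-responsive genes, so it is not among the targets described below.

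Total counts were 6807205, 11717936 and 13964466 in HYH cells, against 13700546, 13897768 and 12557194 in EV cells, so that HYH replicate 1 was counted with less depth than the others. Replicates correlated at 0.980 to 0.983 within HYH and at 0.980 to 0.984 within EV. Defining markers of root cell types were low in these sorted cells. The 6 root hair markers summed to 24.1, 33.8 and 20.5 CPM in HYH cells, against 16.7, 16.1 and 14.02 CPM in EV cells, higher in every HYH library. The other TF libraries of batch 3 ranged from 11.8 to 42.8 CPM, so the HYH libraries lay within their range. Among these markers RHD2, the NADPH oxidase of growing root hairs, was called higher while MRH6 was at 0 in all 6 libraries. The 3 phloem markers summed to 49.5, 45.99 and 40.7 CPM in HYH cells, against 66.5, 64.9 and 66.4 CPM in EV cells, lower in every HYH library, and SUC2, the sucrose loader of companion cells, was called lower. Here too the HYH libraries lay within the range of the other TF libraries of batch 3, 38.1 to 93.6 CPM. Among the 5 stele and xylem markers the cytokinin receptor WOL was called higher, and no marker of non-hair epidermis, cortex, endodermis or root cap was called. The leaf mesophyll markers summed to 2.22 to 3.69 CPM in HYH cells and 2.60 to 3.29 CPM in EV cells. In bulk samples, fewer cells of a type and less RNA per cell cannot be told apart, and the part of these marker differences in the results was not tested.

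Of 33016 genes in the files, 22883 passed the filter of at least 10 counts in at least 3 libraries and were tested with edgeR's quasi-likelihood F-test fitted to all libraries of the series. At an adjusted p (Benjamini-Hochberg, FDR) under 0.05, 1563 genes were called between HYH and EV, or 6.83% of those tested, 454 of them (1.98%) higher and 1109 (4.85%) lower in HYH cells. Genes on the study's list of CHX-responsive genes made up 365 of these calls, out of 1398 tested from that list. Leaving them and the HYH gene out gave 1197 targets (5.23% of the genes tested), 411 induced and 786 repressed, so that 34.3% of the targets were induced. Most changes were small. The median log2 fold change was 0.54 among induced and -0.59 among repressed targets, against 0.02 over all genes tested, and 166 targets changed by more than 1 on the log2 scale, 54 of them induced and 112 repressed. In 405 of the 411 induced targets all HYH libraries were above all EV libraries, and in 772 of the 786 repressed targets all were below, where 12.9% and 13.9% of all genes tested did so. Since the targets were chosen for that contrast, these shares describe them and test nothing. The median level was 35.7 CPM in induced and 51.6 CPM in repressed targets, against 7.20 CPM in all genes tested. The part of expression level in the counts of the gene groups below was not tested. Leaving out EV replicate 1 lowered the number of targets to 717, leaving out HYH replicate 2 to 768 and leaving out HYH replicate 3 to 701.

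**Figure D1:**
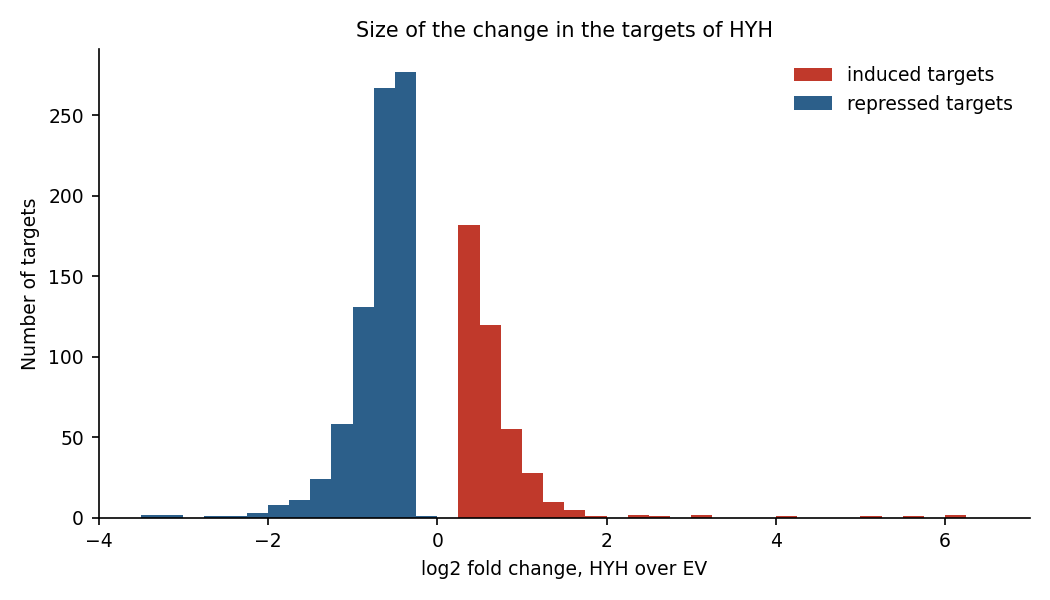
Number of targets (y axis) by log2 fold change of HYH over EV (x axis, bins of 0.25), with induced targets in red and repressed targets in blue. Most of the 411 induced and 786 repressed targets lie within 1 of 0 on the log2 scale, and repressed targets outnumber induced ones.

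Of 46 genes of the nuclear pore, RNA export and nuclear transport, 12 were called higher in HYH cells and 0 lower, and the other 34 did not pass the test. AT1G59660, which encodes a nucleoporin with an autopeptidase domain, had 704, 1122 and 965 CPM in HYH cells, against 287, 359 and 418 CPM in EV cells. The HYH libraries lay above all EV libraries and above the highest library of the other 7 TFs of batch 3 (591 CPM), and the fitted level was 2.63 times that of EV cells (log2 fold change 1.39 ± 0.14 (SE), edgeR FDR 5.54e-13). RAE1, an mRNA export factor that docks at the pore, had 285, 482 and 383 CPM in HYH cells, against 119.6, 144 and 182 CPM in EV cells (log2 fold change 1.37 ± 0.14 (SE), edgeR FDR 7.49e-12), again with no overlap. LOS4, a DEAD-box RNA helicase needed for mRNA export, had 112, 179.5 and 151 CPM in HYH cells, against 80.3, 89.7 and 98.1 CPM in EV cells (log2 fold change 0.73 ± 0.10 (SE), edgeR FDR 4.95e-08). GLE1, the pore protein that stimulates this helicase, had 46.1, 44.5 and 49.3 CPM in HYH cells, against 32.5, 32.3 and 28.4 CPM in EV cells (log2 fold change 0.59 ± 0.12 (SE), edgeR FDR 1.08e-04). In all these genes every HYH library was above every EV library.

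The set is read from RefSeq product names (nucleoporins, mRNA export factors, importins and exportins) and was chosen after the values were seen. The 12 calls stand beside 1.98% of all genes called higher, and the set's median log2 fold change was 0.22, with 41 members fitted above 0. The exportins XPO1A and XPO1B, which carry proteins with a nuclear export signal and some RNAs out of the nucleus, were among them, XPO1A at 607, 681 and 694 CPM in HYH cells, against 468, 550.3 and 526 CPM in EV cells (log2 fold change 0.36 ± 0.09 (SE), edgeR FDR 0.00611) and XPO1B at a log2 fold change of 0.59. The importin α genes IMPA-1, MOS6 and IMPA-8, receptors for proteins on their way into the nucleus, rose by 0.42, 0.56 and 0.92 on the log2 scale, IMPA-8 being on the CHX list. NUA, a filament protein of the inner side of the pore, rose with a log2 fold change of 0.40, AT1G73240, an Ndc1-type nucleoporin, with 0.67, and the nucleoporin AT4G31570 with 0.47. Together the 46 genes summed to 4309, 5050.4 and 4999.8 CPM in HYH cells, against 3298, 3602 and 3426 CPM in EV cells, while the other TF libraries of batch 3 ranged from 2799.6 to 3993.5 CPM, below every HYH library. The count fell to 8 without HYH replicate 3 and to 9 without EV replicate 1. The median transcript of the set measured 2604 nt, longer than the 1685 nt of all genes tested, and longer transcripts were higher in HYH cells overall; the part of length in this count was not tested.

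**Figure D2:**
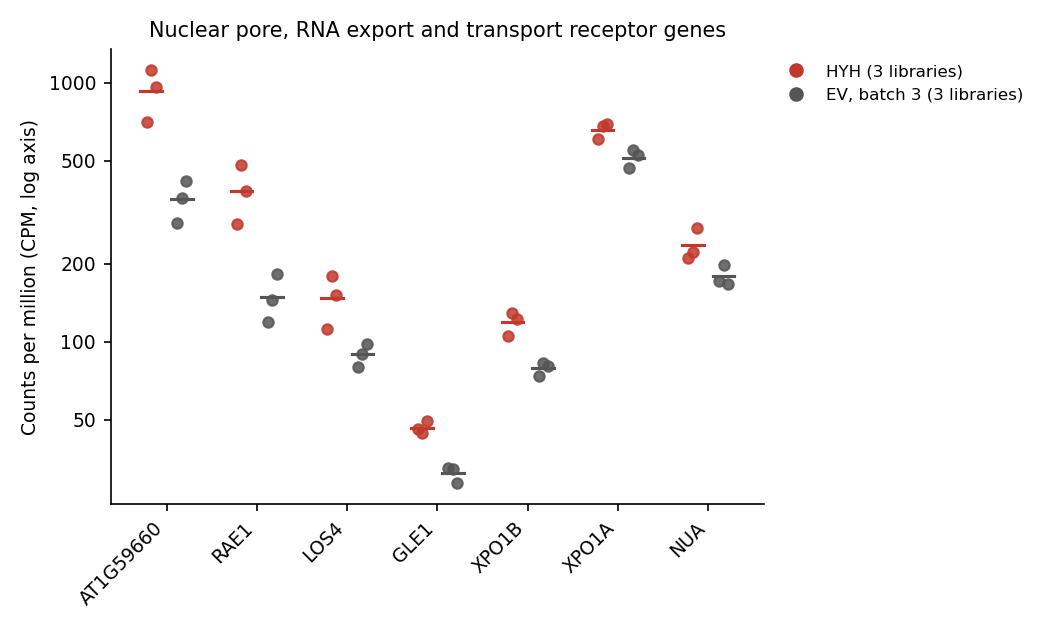
CPM (y axis, log scale) of 7 genes of the nuclear pore, RNA export and nuclear transport in the 3 HYH libraries (red, left) and the 3 EV libraries (grey, right), with the mean of each group as a bar. Every HYH point lies above every EV point of the same gene, and the gap is widest for AT1G59660 and RAE1.

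The 200 bases upstream of 3 of these genes are shown because bZIP factors of this class bind ACGT cores and the 3 genes differ in them (RefSeq genome, TAIR10.1; each sequence 5′ to 3′ on the strand of its gene; ACGT, or CACGTG where the core is part of a G-box, in capitals). The window of AT1G59660 (chr1:21923786-21923985, plus strand) holds a G-box whose ACGT begins at position -148 from the transcript start. The window of LOS4 (chr3:19687540-19687739, plus strand) holds ACGT at -186, -101 and -42, the core at -101 within a G-box. The window of RAE1 (chr1:30323903-30324102, minus strand) holds no ACGT. RAE1 and AT1G59660 rose by 1.37 and 1.39 on the log2 scale, and binding by HYH was not measured.
AT1G59660: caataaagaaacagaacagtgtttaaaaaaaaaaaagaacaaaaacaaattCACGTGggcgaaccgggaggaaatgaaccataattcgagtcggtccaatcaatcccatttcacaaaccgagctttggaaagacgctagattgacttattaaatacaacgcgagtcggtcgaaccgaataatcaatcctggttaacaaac
LOS4: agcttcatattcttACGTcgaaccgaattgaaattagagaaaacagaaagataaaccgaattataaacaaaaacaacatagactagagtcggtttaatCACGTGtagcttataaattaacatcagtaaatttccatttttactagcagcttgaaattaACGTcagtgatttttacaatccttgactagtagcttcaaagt
RAE1: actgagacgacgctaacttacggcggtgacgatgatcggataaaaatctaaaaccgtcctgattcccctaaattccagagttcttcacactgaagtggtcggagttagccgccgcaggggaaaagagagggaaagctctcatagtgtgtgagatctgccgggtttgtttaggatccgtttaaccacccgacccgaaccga

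Among the 10 induced targets with the largest change at a mean of at least 5 CPM in HYH or EV cells, SNZ stood first; some targets below that level, such as AT3G30844, had larger fitted changes than the other 9. SNZ is an AP2-type transcription factor known as a repressor of flowering. It had 4.46, 14.4 and 9.43 CPM in HYH cells, against 0, 0.334 and 0 CPM in EV cells, or 29, 162 and 124 counts against 0, 4 and 0 counts. It was close to absent in EV cells and in the other TFs of batch 3, whose highest library had 1.74 CPM (edgeR FDR 4.40e-06; its fitted fold change depends on the prior count, and DESeq2 did not call it). HA9, a plasma membrane proton pump, had 56.6, 86.9 and 75.4 CPM in HYH cells, against 18.9, 21.2 and 28.3 CPM in EV cells (log2 fold change 1.69 ± 0.23 (SE), edgeR FDR 9.85e-08). HA9 (chr1:30315964-30320197, minus strand) is the downstream neighbour of RAE1 (chr1:30320525-30323902, minus strand), and 327 bases separate the end of RAE1 from the start of HA9. AT1G80640, a protein kinase gene on the plus strand 1513 bases beyond the end of HA9, was also among the 10, at 5.69, 7.03 and 6.47 CPM in HYH cells, against 2.36, 2.09 and 3.34 CPM in EV cells (log2 fold change 1.31 ± 0.35 (SE), edgeR FDR 0.00728; the call was lost without EV replicate 2). Between them RTL1 (AT1G80650), a ribonuclease III-like gene on the plus strand that overlaps the end of HA9, was not called. The library kit does not mark strand, so reads that run past a gene into its neighbour cannot be told apart from the neighbour's own.

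The remaining genes of the 10 have varied roles. SQD2, the sulfolipid synthase of plastids that is induced when phosphate is short, had 18.4, 26.9 and 24.1 CPM in HYH cells, against 8.52, 9.26 and 9.66 CPM in EV cells (log2 fold change 1.35 ± 0.19 (SE), edgeR FDR 6.10e-08). XTH14, an enzyme that cuts and rejoins xyloglucan in the cell wall, had 175, 327 and 198 CPM in HYH cells, against 68.1, 92.2 and 123 CPM in EV cells (log2 fold change 1.31 ± 0.26 (SE), edgeR FDR 1.69e-04). AT2G46380, annotated as a putative extra-large G-like protein, had 40.6, 77.04 and 40.6 CPM in HYH cells, against 17.96, 21.5 and 21.5 CPM in EV cells (log2 fold change 1.38 ± 0.27 (SE), edgeR FDR 1.57e-04), and AT3G28600, annotated as a P-loop nucleoside triphosphate hydrolase, rose by 1.38. The groups did not overlap in any of these 4 genes. The transcribed pseudogene AT3G61185 rose by 1.58, a call lost without HYH replicate 2 and in the fit of batch 3 alone, and the fit of batch 3 alone also lost XTH14.

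A few further induced genes had some of the lowest p-values and were picked for that after the values were seen. AT1G63530, an uncharacterized gene, had 283, 383 and 335 CPM in HYH cells, against 154, 170.0 and 189 CPM in EV cells (log2 fold change 0.97 ± 0.12 (SE), edgeR FDR 1.03e-09). Its neighbour AT1G63540, 1371 bases further along the same strand, rose as well, by 1.54 on the log2 scale from a low level. PATL1, a lipid-binding protein of the forming cell plate, had 269, 397 and 314 CPM in HYH cells, against 176, 186 and 187 CPM in EV cells (log2 fold change 0.84 ± 0.12 (SE), edgeR FDR 1.96e-07). AT1G75340, a CCCH zinc finger protein, had 27.2, 31.5 and 30.05 CPM in HYH cells, against 13.2, 16.1 and 14.9 CPM in EV cells (log2 fold change 1.01 ± 0.14 (SE), edgeR FDR 1.81e-08). No HYH library overlapped with an EV library in AT1G63530, PATL1 or AT1G75340.

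The 10 repressed targets with the largest change, by the same limit of 5 CPM, which leaves out for example AT3G00550, were mostly little studied genes at low levels. Among these the largest drop was in AT3G19615, annotated as a β-1,4-xylosidase, at 1.69, 0.979 and 1.45 CPM in HYH cells, against 5.99, 6.01 and 7.06 CPM in EV cells (log2 fold change -2.24 ± 0.39 (SE), edgeR FDR 1.37e-05). The transcribed pseudogene AT4G23215 had 5.69, 5.96 and 5.02 CPM in HYH cells, against 25.7, 24.9 and 18.8 CPM in EV cells (log2 fold change -2.06 ± 0.37 (SE), edgeR FDR 3.05e-05). AT1G65500, uncharacterized, had 34.9, 27.7 and 20.4 CPM in HYH cells, against 92.99, 94.99 and 93.9 CPM in EV cells (log2 fold change -1.79 ± 0.20 (SE), edgeR FDR 2.13e-10). In each of the 3 every HYH library was below every EV library. AT1G72070, a DnaJ-domain chaperone gene, had 44.6, 28.02 and 39.2 CPM in HYH cells, against 122, 121 and 124 CPM in EV cells (log2 fold change -1.72 ± 0.19 (SE), edgeR FDR 4.61e-11), and AT1G72060, a protease inhibitor gene on the other strand, overlaps it by 391 bases and fell by 1.89 on the log2 scale, so without strand information the reads of the pair are uncertain. ARCK1, a receptor-like kinase that acts in abscisic acid and osmotic stress responses, had 3.53, 1.33 and 2.13 CPM in HYH cells, against 6.58, 6.93 and 6.13 CPM in EV cells (log2 fold change -1.58 ± 0.40 (SE), edgeR FDR 0.00448). The calls of ARCK1 and AT1G72060 were lost without HYH replicate 2. The other 4 genes, AT1G66465, AT5G44580, AT5G46295 and AT3G18250, fell by 1.60 to 1.92 on the log2 scale.

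More abundant repressed genes, picked after their values were seen for their low p-values, included MT2B, a metallothionein that binds copper, at 64.9, 66.4 and 44.95 CPM in HYH cells, against 167, 154 and 189 CPM in EV cells (log2 fold change -1.54 ± 0.16 (SE), edgeR FDR 2.25e-11). VTC5, a GDP-L-galactose phosphorylase that controls the flow into vitamin C, had 34.3, 27.2 and 32.4 CPM in HYH cells, against 70.5, 63.9 and 62.8 CPM in EV cells (log2 fold change -1.08 ± 0.13 (SE), edgeR FDR 3.23e-10). EFE, the enzyme that makes ethylene from ACC, had 136, 126 and 125 CPM in HYH cells, against 242, 230.5 and 227 CPM in EV cells (log2 fold change -0.85 ± 0.10 (SE), edgeR FDR 3.78e-10). PEN3, an ABC transporter of pathogen defence at the plasma membrane, had 2040.3, 1511 and 2149 CPM in HYH cells, against 3839, 3742 and 3234 CPM in EV cells (log2 fold change -0.92 ± 0.13 (SE), edgeR FDR 1.43e-07). In all 4 genes every HYH library was below every EV library. The upstream window of MT2B (chr5:507245-507444, minus strand; marked as above) is shown because it holds a G-box, with ACGT at -65, in a repressed gene.
MT2B: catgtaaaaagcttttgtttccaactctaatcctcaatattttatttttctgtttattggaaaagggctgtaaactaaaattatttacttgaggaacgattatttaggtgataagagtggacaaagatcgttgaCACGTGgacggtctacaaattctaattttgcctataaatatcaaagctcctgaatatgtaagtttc

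The amino acid permeases AAP1 to AAP6, which import amino acids into root and vascular cells, were all lower in HYH cells. AAP1, which takes up neutral and acidic amino acids from the soil, had 229, 224 and 208 CPM in HYH cells, against 369, 333 and 306 CPM in EV cells (log2 fold change -0.61 ± 0.13 (SE), edgeR FDR 5.05e-04). AAP2, which moves amino acids between xylem and phloem, had 19.98, 15.03 and 13.7 CPM in HYH cells, against 46.4, 40.3 and 45.04 CPM in EV cells (log2 fold change -1.46 ± 0.22 (SE), edgeR FDR 1.28e-06). AAP5, the permease for basic amino acids at the root surface, had 168, 151 and 140.2 CPM in HYH cells, against 309, 289 and 238 CPM in EV cells (log2 fold change -0.87 ± 0.13 (SE), edgeR FDR 1.08e-07). The 3 HYH libraries were below the 3 EV libraries in all 6 genes. AAP3, AAP4 and AAP6 fell by 0.67, 0.70 and 0.73 on the log2 scale. The group of 8 genes was read from product names after the values were seen. It had 6 members called lower and 0 higher, beside 4.85% of all genes called lower, and the count was 6 with any library left out. Its summed level was 580.0, 552 and 519 CPM in HYH cells, against 988, 910.1 and 806 CPM in EV cells. In the other TF libraries of batch 3 the sum ranged from 590.2 to 893 CPM, so that the HYH libraries were below all of them and 2 of the 3 EV libraries above all of them. The difference from those 7 TFs was called for 5 members (2 without HYH replicate 2 or 3) and that from TGA4 for 0 of 8, by edgeR and by DESeq2, with 4 lower at an unadjusted p under 0.05.

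**Figure D3:**
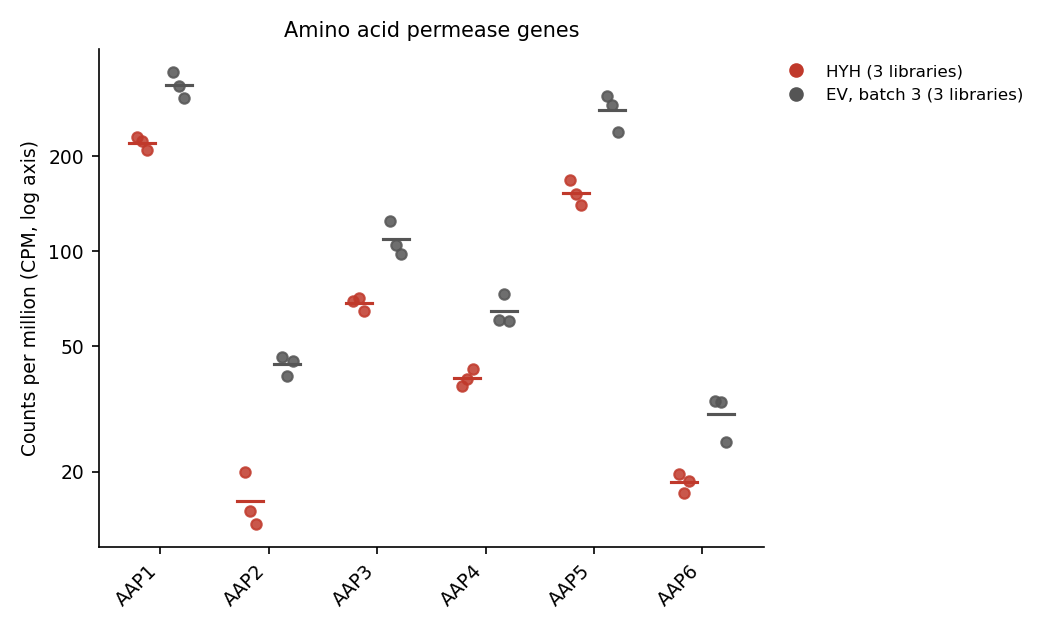
CPM (y axis, log scale) of the amino acid permease genes AAP1 to AAP6 in the 3 HYH libraries (red, left) and the 3 EV libraries (grey, right), with the mean of each group as a bar. In each gene the 3 HYH points lie below the 3 EV points.

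Members of further groups read from product names after the values were seen, with roles in indole and defence metabolism, were called lower, beside 4.85% of all genes called lower. Anthranilate synthase makes the first committed step of tryptophan synthesis. Its β subunit gene ASB1 had 73.00, 52.04 and 56.2 CPM in HYH cells, against 121, 109 and 110.0 CPM in EV cells (log2 fold change -0.92 ± 0.11 (SE), edgeR FDR 3.78e-10), and the α subunit gene ASA1 fell by 0.44 on the log2 scale (edgeR FDR 0.0208). Of the 8 genes of the group 7 were called lower, but AT1G24807, AT1G24909, AT1G25083 and AT1G25155 are near-identical copies among which reads may have been split, so their 4 calls are uncertain and are not separate evidence. The indole glucosinolate methyltransferase IGMT4 had 56.6, 44.4 and 53.3 CPM in HYH cells, against 122, 99.3 and 102 CPM in EV cells (log2 fold change -1.07 ± 0.21 (SE), edgeR FDR 1.91e-04), and 4 of the 5 genes of that group were called lower, 3 of them on the CHX list. Of 16 chitinases 5 were called lower, among them AT2G43620, at 52.7, 44.8 and 39.9 CPM in HYH cells, against 133, 109 and 129 CPM in EV cells (log2 fold change -1.44 ± 0.18 (SE), edgeR FDR 6.64e-09). The chitinase count was 5 with any library left out. The 16 chitinases summed to 934, 909 and 805 CPM in HYH cells, against 1452, 1316 and 1360.1 CPM in EV cells, and the other TF libraries of batch 3 ranged from 911 to 1298 CPM, below all EV libraries. The HYH and EV libraries did not overlap in ASB1, IGMT4 or AT2G43620.

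WRKY factors, a plant family of transcription factors with many members in pathogen and wound responses, had 18 of 69 genes called lower and 0 higher, 6 of the 18 on the CHX list, beside 4.85% of all genes called lower. WRKY23 had 69.9, 49.4 and 68.9 CPM in HYH cells, against 130.2, 112 and 109 CPM in EV cells (log2 fold change -0.90 ± 0.12 (SE), edgeR FDR 7.92e-09). The CHX-listed WRKY53, a factor of senescence and defence, had 49.8, 24.3 and 40.4 CPM in HYH cells, against 188, 132 and 87.8 CPM in EV cells (log2 fold change -1.85 ± 0.25 (SE), edgeR FDR 5.81e-08). The median over the 69 genes was only -0.08, so the calls sit in part of the family. Of 51 glutathione S-transferases, which conjugate glutathione to reactive compounds, 12 were called lower and 0 higher, against the same 4.85% of all genes. GSTU13 had 9.84, 9.52 and 5.25 CPM in HYH cells, against 22.3, 19.4 and 21.3 CPM in EV cells (log2 fold change -1.38 ± 0.20 (SE), edgeR FDR 9.00e-08), and GSTF6 fell by 0.87 on the log2 scale. The count fell to 6 without HYH replicate 3. Of 19 S-locus lectin receptor kinases 7 were called lower, again beside 4.85%, and the count was 7 with any library left out. The summed WRKY level was 11632, 11078 and 12231 CPM in HYH cells, against 15696, 14946 and 14814 CPM in EV cells, and the other TF libraries of batch 3 ranged from 10830.1 to 15796 CPM with a median of 12834 CPM, so most of them were also below EV.

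Of 21 tested genes of the abscisic acid (ABA) response 7 were called lower and 0 higher (33.3%, beside 4.85% of all genes called lower), with a median log2 fold change of -0.42. The PP2C phosphatases HAI1, HAI2 and HAI3, which are induced by ABA and dampen its signal, were among them. HAI2 had 80.7, 50.5 and 87.3 CPM in HYH cells, against 182, 164 and 171 CPM in EV cells (log2 fold change -1.25 ± 0.16 (SE), edgeR FDR 2.22e-08). HAI1 had 117, 64.9 and 95.99 CPM in HYH cells, against 229, 182 and 191 CPM in EV cells (log2 fold change -1.12 ± 0.16 (SE), edgeR FDR 1.24e-07). HAI3 had 10.3, 8.54 and 9.51 CPM in HYH cells, against 29.3, 26.2 and 24.9 CPM in EV cells (log2 fold change -1.51 ± 0.25 (SE), edgeR FDR 4.13e-06). The 3 genes did not overlap between the groups, and the HYH libraries were also below the lowest library of the other 7 TFs in each of them. EM1, a LEA protein of seeds that is on the CHX list, had 3.23, 2.94 and 4.64 CPM in HYH cells, against 14.9, 12.9 and 19.2 CPM in EV cells (log2 fold change -2.09 ± 0.39 (SE), edgeR FDR 7.44e-05), and PP2CA, LTI65 and LTI78 fell by 0.50, 0.83 and 0.52 on the log2 scale. Without EV replicate 1 or without HYH replicate 2 the count was 5.

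Late embryogenesis abundant (LEA) proteins protect cells that dry out, and several are ABA-induced. Of 76 genes with this product name, a group read after the values were seen that also takes in related membrane proteins such as NDR1, 11 were called lower and 1 higher, beside 4.85% and 1.98% of all genes. LEA7 had 15.7, 12.4 and 18.2 CPM in HYH cells, against 32.3, 35.8 and 36.6 CPM in EV cells (log2 fold change -1.18 ± 0.24 (SE), edgeR FDR 3.08e-04), and AT3G15670, another LEA gene, had 3.84, 3.83 and 7.68 CPM in HYH cells, against 14.8, 12.4 and 16.3 CPM in EV cells (log2 fold change -1.43 ± 0.34 (SE), edgeR FDR 0.00266). Both were lower in all HYH libraries than in any EV library. Of 22 tested genes of jasmonate synthesis and its JAZ repressors, 6 were called lower and 0 higher, beside 4.85% of all genes called lower, and 4 of the 6 are on the CHX list. These were the lipoxygenases LOX3 and LOX4, AOS and OPR3, which together lead to jasmonate, and TIFY7 and JAZ12, 2 JAZ proteins. LOX3 had 3652, 3069 and 3729 CPM in HYH cells, against 5402, 5499.6 and 4760.1 CPM in EV cells (log2 fold change -0.58 ± 0.09 (SE), edgeR FDR 1.97e-06). The list summed to 13518, 12480.2 and 13488 CPM in HYH cells, against 17527, 17267 and 16141 CPM in EV cells, and the other TF libraries of batch 3 had a median of 14013 CPM, below all EV libraries, with the highest at 16738 CPM.

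The lists of flavonoid, light signalling, B-box, UV-B and photosynthesis genes cover part of the known roles of HY5 and HYH. They held 0 or 1 call each, beside 6.83% of all genes called, a share at which lists of this size would hold few calls. The lists do not hold every gene of these roles. Among targets outside them, picked after their values were seen, the phytochrome gene PHYE rose by 0.40 on the log2 scale. TZP and ULI3, of light and UV-B signalling, rose by 0.71 and 0.98. HEMA2 and GSA1, of chlorophyll precursor synthesis, fell by 0.41 each. Of 18 tested flavonoid and anthocyanin enzymes 0 were called by edgeR in either direction, 0 also by DESeq2, with 4 lower at an unadjusted p under 0.05 and a median log2 fold change of -0.23. The fit of the HYH and EV libraries alone and the fit with the replicate number as a block each called 3 of them lower. TT4, the chalcone synthase that opens the flavonoid pathway, had 0.615, 0.979 and 0.837 CPM in HYH cells, against 0.843, 1.09 and 0.279 CPM in EV cells (log2 fold change 0.16 ± 0.77 (SE), edgeR FDR 0.96), a level at which a change would be hard to detect. PAL1, which supplies the pathway and lignin synthesis from phenylalanine, had 1169, 1246 and 1045 CPM in HYH cells, against 1534, 1354 and 1351 CPM in EV cells (log2 fold change -0.29 ± 0.17 (SE), edgeR FDR 0.397). Its HYH libraries were below its EV libraries, but the difference missed the threshold. The 4 tested regulators of the pathway, 10 B-box factors, 10 genes of the UV-B and high-light response and 23 genes of photosynthesis and chlorophyll synthesis had 0 calls each, by edgeR and by DESeq2. At an unadjusted edgeR p under 0.05, 2 B-box factors and 1 photosynthesis gene were higher, 1 B-box factor and 1 UV-B gene were lower, and 0 regulators differed. Of 24 tested light signalling genes 1 was called, COP1, at 26.7, 31.1 and 32.3 CPM in HYH cells, against 22.8, 21.9 and 21.3 CPM in EV cells (log2 fold change 0.46 ± 0.14 (SE), edgeR FDR 0.0278). Its libraries did not overlap, and the call was lost when any library except HYH replicate 1 was left out, and without the filter on low counts.

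Nitrogen genes were tested in cells that all received N, and their counts stand beside 6.83% of all genes called. Of the 12 tested nitrate and ammonium transporters on the list 0 were called by edgeR, with 2 lower at an unadjusted p under 0.05, and DESeq2 called 1 of them lower. The list does not hold every such gene. NRT1.9, a nitrate transporter outside it picked after its values were seen, was a repressed target (log2 fold change -0.53 ± 0.13 (SE), edgeR FDR 0.00285). AMT1;1, a high-affinity ammonium transporter, had 355, 378 and 373 CPM in HYH cells, against 479, 440.0 and 393 CPM in EV cells (log2 fold change -0.25 ± 0.09 (SE), edgeR FDR 0.075), with no overlap between the groups but no call. NRT1.1, the dual-affinity nitrate transporter and sensor, had 39.96, 34.4 and 32.1 CPM in HYH cells, against 43.9, 36.2 and 32.5 CPM in EV cells (log2 fold change -0.09 ± 0.19 (SE), edgeR FDR 0.884), where the groups overlapped. Of 21 genes of nitrogen reduction and assimilation 2 were called. GSR2, a cytosolic glutamine synthetase, had 180.0, 197 and 179 CPM in HYH cells, against 139, 148 and 151 CPM in EV cells (log2 fold change 0.34 ± 0.11 (SE), edgeR FDR 0.0352), and FD3, the root ferredoxin that feeds nitrite reductase, had 60.9, 77.2 and 46.8 CPM in HYH cells, against 78.4, 74.3 and 91.5 CPM in EV cells (log2 fold change -0.40 ± 0.13 (SE), edgeR FDR 0.0392), with an overlap in HYH replicate 2. The GSR2 call was lost when any library was left out, and that of FD3 when any of 4 was. Of 16 nitrate signalling genes 3 were called. BT2, a BTB and TAZ domain protein that represses nitrate uptake genes, had 75.6, 58.5 and 78.3 CPM in HYH cells, against 133, 118 and 131 CPM in EV cells (log2 fold change -0.85 ± 0.15 (SE), edgeR FDR 1.44e-05). Its relative BT1, on the CHX list, fell by 0.58 on the log2 scale. AT1G64530, the NIN-like protein NLP6, had 65.8, 69.4 and 64.7 CPM in HYH cells, against 48.6, 54.8 and 45.97 CPM in EV cells (log2 fold change 0.42 ± 0.11 (SE), edgeR FDR 0.00471), a call lost without EV replicate 3.

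The sulfate, iron, clock and bZIP lists gave 2 or 3 calls each, beside 6.83% of all genes called. The sulfate list does not hold every such gene. Outside it, picked after their values were seen, the APS kinase AKN2 (log2 fold change -0.75, edgeR FDR 5.18e-08) and the sulfate transporter AT3G15990 (-0.67, edgeR FDR 0.00903) were repressed targets. Of the 23 sulfate genes on the list 3 were called lower, and the count was 1 without HYH replicate 3. SERAT2;1, a serine acetyltransferase of cysteine synthesis, had 236, 233 and 231 CPM in HYH cells, against 351, 313 and 358 CPM in EV cells (log2 fold change -0.55 ± 0.11 (SE), edgeR FDR 1.38e-04), APS4, an ATP sulfurylase, fell by 0.41, and OASC, the mitochondrial cysteine synthase, fell by 0.42 on the log2 scale. Of 27 iron genes FER1, the iron-storing ferritin, had 283, 185 and 279 CPM in HYH cells, against 373, 341 and 385 CPM in EV cells (log2 fold change -0.56 ± 0.15 (SE), edgeR FDR 0.0073). FRO3, a ferric reductase of mitochondria, fell by 0.73, and ABCG37, an exporter of phenolic compounds and auxin precursors, rose by 0.61. Without HYH replicate 2 the FER1 call was lost. Of 22 clock genes 3 were called higher, PRR9, GI and AT3G54500 (LNK2), with PRR9, a morning repressor of the clock, at 40.4, 42.3 and 41.4 CPM in HYH cells, against 28.9, 32.3 and 31.1 CPM in EV cells (log2 fold change 0.43 ± 0.11 (SE), edgeR FDR 0.00681). None of the 3 was called without EV replicate 1. Of the 10 bZIP factors of groups C and S, which respond to sugar and N status, bZIP1 had 317, 268 and 268 CPM in HYH cells, against 441, 425 and 443 CPM in EV cells (log2 fold change -0.62 ± 0.12 (SE), edgeR FDR 5.82e-05) and BZIP53 fell by 0.38. Of 34 Aux/IAA and GH3 genes and of 18 heat shock genes 0 were called by edgeR. DESeq2 called 1 Aux/IAA or GH3 gene higher, 2 lower, and 0 heat shock genes. At an unadjusted edgeR p under 0.05, 3 Aux/IAA or GH3 genes were higher and 4 lower, and 0 heat shock genes differed. Of 50 histones, a group read after the values were seen, 6 were called higher and 2 lower, beside 1.98% and 4.85% of all genes. The 6 fell to 1 without HYH replicate 2.

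**Figure D4:**
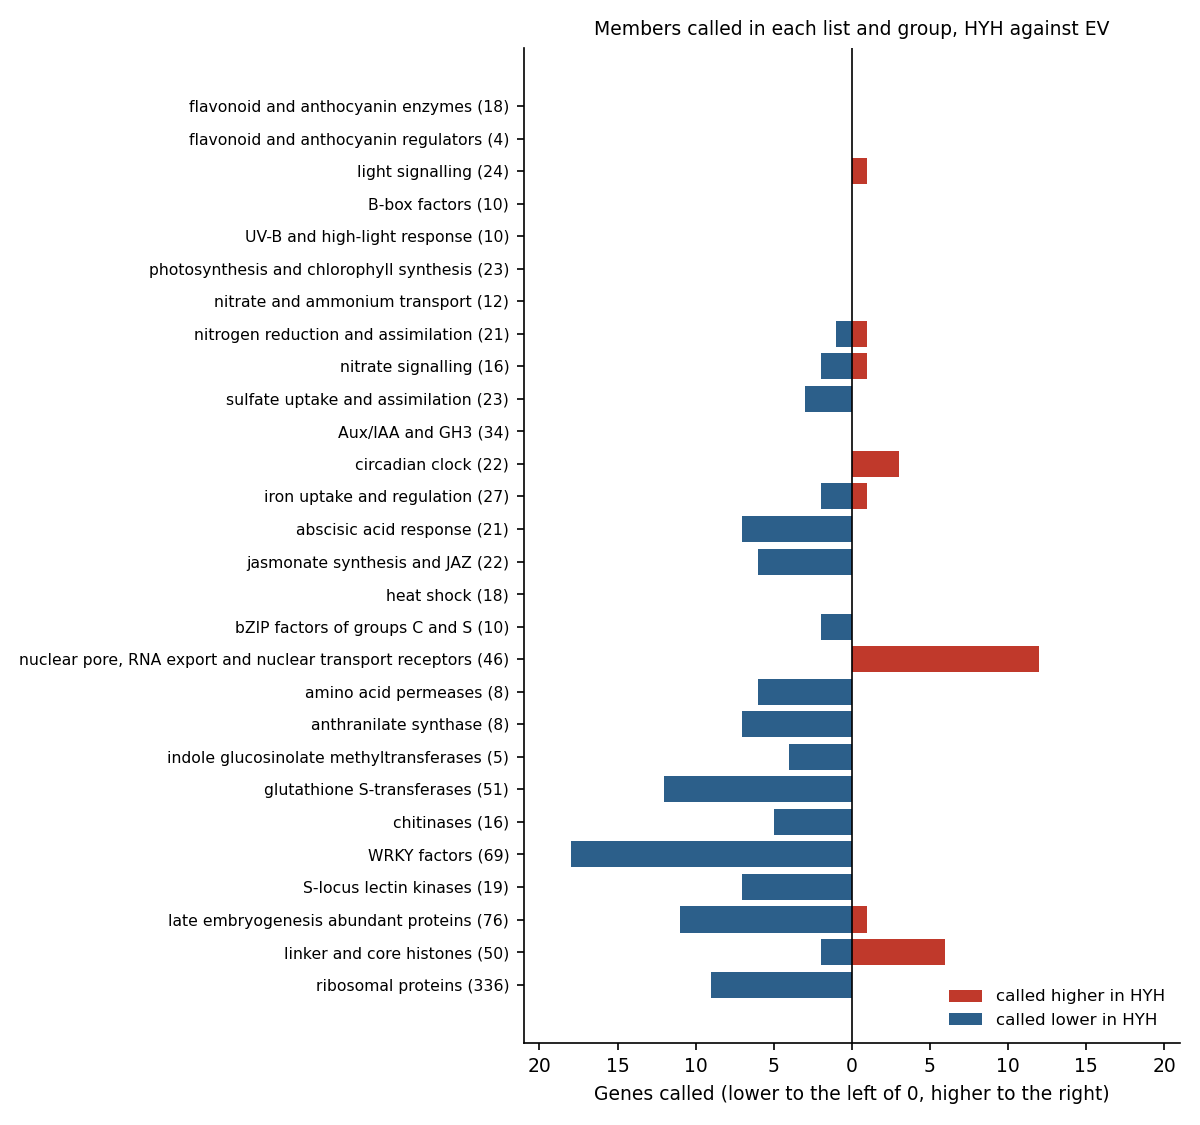
Number of genes called higher in HYH cells (red, to the right of 0) and lower in HYH cells (blue, to the left) in each list and each annotation group, with the number of genes tested in parentheses. The nuclear pore and export group has calls to the right only, at 12, while the WRKY group has calls to the left only, at 18.

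To see whether the changes set HYH apart from other TFs, HYH was compared with the mean of the other 7 TFs of batch 3 (BEE2, COL5, CRF4, GATA17L, HB6, HHO3 and TGA4), from which the EV libraries cancel out. Genes called in this comparison made up 6.86% of those tested (2.8% higher, 4.06% lower), and 1232 (5.38%) were left after removing CHX-listed genes and HYH, 534 higher and 698 lower. Without HYH replicate 2 the number was 499 and without HYH replicate 3 it was 591. Of the 1197 targets against EV, 654 were called with the same sign here, 241 higher and 413 lower. The comparisons share the HYH libraries, so that overlap is no independent support. Of the 46 export and transport genes 15 were called higher and 0 lower (9 higher without HYH replicate 3). AT1G59660 differed from the other TFs by 1.19 ± 0.09 (SE) on the log2 scale (edgeR FDR 1.21e-18), and RAE1 by 1.05 (edgeR FDR 2.54e-14).

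By the size of this difference the 5 highest targets were SNZ, AT1G12600, XTH14, AT1G59660 and AT3G61185. AT1G12600, a UDP-sugar transporter gene, had 11.99, 24.8 and 12.2 CPM in HYH cells, against 3.96, 6.68 and 9.94 CPM in EV cells, while the other TF libraries ranged from 3.27 to 10.2 CPM, below all HYH libraries (the call was lost without HYH replicate 2). The 5 lowest were AT3G15670, AT3G19615, AT4G23215, AT3G18250 and LEA7. AT3G18250, a putative membrane lipoprotein, had 4.46, 3.83 and 4.03 CPM in HYH cells, against 12.1, 13.8 and 11.1 CPM in EV cells, and the other TF libraries ranged from 7.01 to 17.1 CPM. The chitinase gene AT2G43620 had a log2 difference of -0.64 from the other TFs and of -1.44 from EV, with a median of 69.5 CPM in the other TF libraries. Whether the EV libraries or the HYH libraries stand apart in such genes was not tested. Ribosomal protein genes, a group read after the values were seen, gave 9 of 336 called lower against EV (2 to 10 with 1 library left out, 17 with DESeq2). That share, 2.68%, was below the 4.85% of all genes called lower against EV. Against the other TFs 78 were called lower and 3 higher, beside 4.06% of all genes called lower, but without HYH replicate 3 the 78 became 16 and without HYH replicate 1 they became 45. Their median transcript measured 1007 nt.

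TGA4 is the other bZIP factor of batch 3, of the TGA group that acts in nitrate and defence responses, whereas HYH is of the HY5 group. Between HYH and TGA4 3.7% of the genes tested were called (0.905% higher, 2.79% lower), and 634 (2.77%) remained without CHX-listed genes and HYH, 165 higher and 469 lower. Without HYH replicate 2 the number was 284. HAI1, HAI2 and HAI3 were lower in HYH cells than in TGA4 cells by differences of -1.12, -1.18 and -1.04 on the log2 scale (edgeR FDR 2.43e-07, 1.47e-07 and 0.00499). AT1G59660 was higher by 0.98 and RAE1 by 0.91, and 8 of the 46 export and transport genes were called higher and 0 lower (5 higher without HYH replicate 2).

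bZIP3, a bZIP factor of group S, was assayed in batch 4 with its own EV libraries, so the effect of HYH on EV was compared with that of bZIP3 on EV. At this difference of effects 6.0% of the genes tested were called (2.33% higher, 3.67% lower), and 1209 (5.28%) remained without CHX-listed genes and HYH, 463 of them (38.3%) higher and 746 lower. With the size factors of DESeq2 in place of TMM in edgeR, 49.2% of 1300 were higher, and with DESeq2 53.7% of 1796, so the split between directions depends on the scaling. The effect of HYH exceeded that of bZIP3 in AT1G59660 by 1.25 (edgeR FDR 1.83e-06) and was below it in BT2 by a difference of -2.24 (edgeR FDR 8.24e-13), MT2B (-1.49, edgeR FDR 1.47e-06) and HAI2 (-1.32, edgeR FDR 2.31e-05). Of the ribosomal protein genes 154 of 336 were called lower and 0 higher, beside 3.67% of all genes called lower. With the size factors of DESeq2 148 were called lower, and with DESeq2 157, with 0 higher in both. Their median log2 value was -0.73 in this difference, but -0.15 for HYH against EV. BT2 was at -0.85 for HYH against EV. Either TF can make a difference of effects, and the effect of bZIP3 alone is not given here.

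The promoter windows of the targets, from 250 bases before to 50 after the RefSeq transcript start, were searched on both strands for CACGTG (the G-box), GACGTG (its hybrid with the C-box), GACGTC (the C-box) and the shared core ACGT, which the other 3 contain. CACGTG was in 41 of 411 induced windows (9.98%, Wilson 95% interval 7.44 to 13.3), in 70 of 786 repressed windows (8.91%, 7.11 to 11.1) and in 8.31% of the windows of all 22759 tested genes matched to RefSeq. GACGTG was in 9.73% of induced windows (7.23 to 12.98), 8.78% of repressed windows (6.995 to 10.96) and 7.31% of all windows. GACGTC was in 20 induced windows (4.87%, 3.17 to 7.40), in 18 repressed windows (2.29%, 1.45 to 3.59) and in 3.01% of all windows. ACGT was in 53.8% of induced windows (48.9 to 58.5), 56.5% of repressed windows (53.00 to 59.9) and 50.4% of all windows (49.8 to 51.1). The intervals cover counting error only, and no difference between these shares was tested. A window with a motif need not be bound by HYH, and AT1G59660, LOS4 and MT2B, shown above, are G-box windows in both directions of change.

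Transcript length moved with the direction of change. The median RefSeq transcript measured 2247 nt in induced targets, 1476.5 nt in repressed targets and 1685 nt in all genes tested, and 9.49% of induced, 21.8% of repressed and 19.2% of all genes had a single exon. When all tested genes were split by length into 5 groups of equal size, the median log2 fold change of HYH over EV was -0.09, -0.04, 0.01, 0.04 and 0.09, shortest to longest. Group 1 held 17 induced and 205 repressed targets, and group 5 held 175 induced and 110 repressed targets. The medians ran the same way against the other 7 TFs, between -0.10 and 0.06, against TGA4, between -0.09 and 0.06, and in the difference from bZIP3, between -0.22 and 0.16. The part of length in the counts by direction and in the changes of single genes was not tested.

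**Figure D5:**
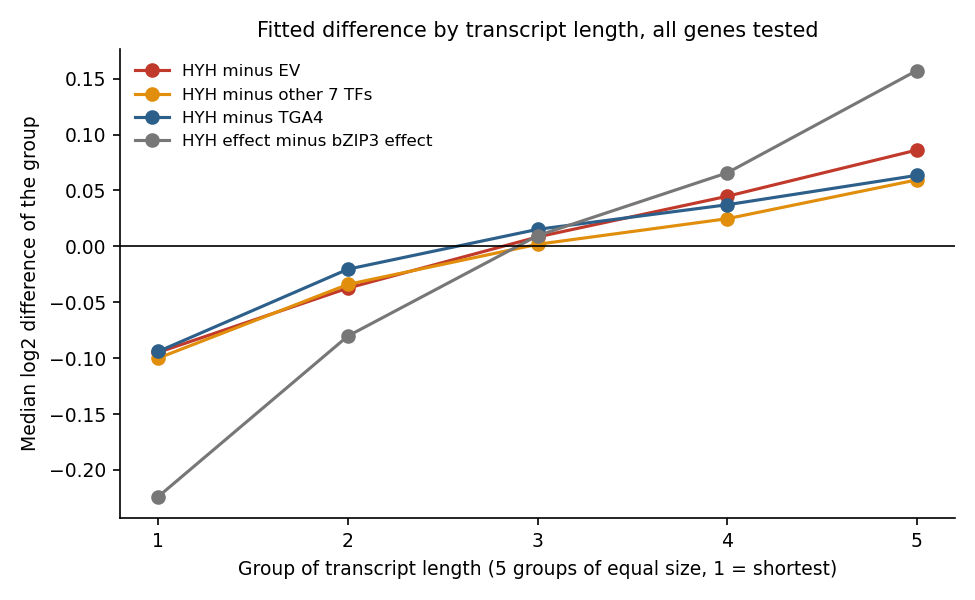
Median log2 difference over all tested genes (y axis) in each of 5 equal groups of transcript length (x axis, 1 is the shortest), for HYH against EV (red), against the mean of the other 7 TFs (orange), against TGA4 (blue) and for the HYH effect minus the bZIP3 effect (grey). Each line climbs with length, the line for EV between -0.09 and 0.09.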

How the data were processed

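RNA-seq counts from 3 HYH and 3 EV libraries of batch 3 were analysed, groups and batches taken from the labels. Per the labels and the study's methods, the authors made polyA libraries with an unstranded kit, aligned the reads with TopHat2 to TAIR10 and deposited raw counts per gene, without normalization, 1 library per file. How reads with several matches were counted is not given in the sources used here. Genes with 10 or more counts in 3 or more libraries were fitted with edgeR 4.0.16 (limma 3.58.1, R 4.3.3): TMM, robust quasi-likelihood fit, 1 mean for each of 39 groups over all libraries of the series, 76 residual degrees of freedom, p-values adjusted by Benjamini-Hochberg over all genes tested in each comparison. As in the study, its 1421 CHX-responsive genes were removed from targets after the test. The SE of a log2 fold change was derived from its F statistic. The fit was tested on simulated data. Motifs were searched in the RefSeq genome (TAIR10.1), whose symbols and products were matched by locus. Named genes were HYH and HY5, the 10 most induced and 10 most repressed targets (at least 5 CPM, same sign in 3 same-numbered comparisons), up to 4 called members of each list with the lowest FDR, and the 5 highest and 5 lowest against the other 7 TFs. Other names are given as list members or said to be picked after their values were seen. The members and lists were chosen with earlier results of these data known. Alternatives were DESeq2 1.42.0, its size factors, no count filter, a replicate block and fewer libraries in the fit. Further ones were CHX-responsive genes kept, TF genes left out of the normalization, and each of the 3 HYH and 3 EV libraries of batch 3 left out in turn. No library of another TF or batch was left out in this way.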

Additional observations from a re-analysis of the deposited data

How the results depend on the processing

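The number of targets of HYH against EV was 1197. It was 1940 when only the HYH and EV libraries were fitted and 2111 when only batch 3 was, and 701 to 1011 with 1 library left out. The fit of the HYH and EV libraries alone shared 1146 targets with the 1197, and the fit of batch 3 shared 1159. With DESeq2 the number was 1644, of which 1176 were shared, with its size factors 1209, and with no filter on low counts 1118, of which 20.5% were induced in place of 34.3%. Against the other 7 TFs the number was 1232, with 2030 in batch 3 alone and 499 to 852 with an HYH library left out. Against TGA4 it was 634, with 1106 in batch 3 alone and 284 to 562 with an HYH library left out. The share higher was 13.4% without HYH replicate 2 in place of 26.03%. For the difference from bZIP3 it was 1209, with 826 to 1090 with an HYH or EV library of batch 3 left out, 1796 with DESeq2 and 1300 with its size factors. The 50 named genes kept the sign of their fold change in every alternative, but the share higher in the difference from bZIP3 was 53.7% with DESeq2 in place of 38.3%, and the median log2 fold changes of the light signalling, UV-B, heat shock, photosynthesis and nitrogen assimilation lists, all close to 0, changed sign in some fits. The causes were not tested, beyond the fewer samples in the fits that leave some out.

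Same-numbered HYH and EV replicates of batch 3 did not deviate together (correlations 0.06, -0.03 and -0.003), so these correlations showed no pairing of HYH with EV libraries. With the replicate block the counts were 1662, 1659, 924 and 1677 for EV, the other 7 TFs, TGA4 and bZIP3, each higher than without it, for a reason that was not tested. All 50 named genes stayed called or, as HY5, not called. Of the 50 genes, GI and GSR2 lost the call in 7 alternatives each, COP1, FD3 and ABCG37 in 6, OASC in 5, AT3G54500 in 4, FRO3 and BZIP53 in 3 and AT3G61185 in 2. The depth of HYH replicate 1, 6807205 counts, limits what genes at about 1 CPM can show.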
